A study of Mus musculus with 6 samples.

Results

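Described here are 10 genes, namely the 3 members of the GADD45 family (Gadd45a, Gadd45b and Gadd45g) and 7 genes known as targets of the tumour suppressor p53 (Cdkn1a, Mdm2, Ccng1, Plk2, Btg2, Phlda3 and Trp53inp1). They were chosen by symbol, with earlier results of these data known. All 10 were found among the 27067 gene identifiers of the deposited count table. PolyA RNA of B16F10 cells, a mouse melanoma line that makes pigment, was sequenced in 3 libraries after treatment with Polianthes tuberosa L. (tuberose) extract and in 3 libraries of control cells. The sources used here do not give the dose, the duration, the solvent or whether the controls received it. No label says whether replicates were separate cultures, so p-values measure only the spread between these libraries, which may be technical.

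GADD45 proteins are small acidic nuclear proteins induced by DNA damage and other stress. They bind cell cycle regulators, the clamp PCNA and the stress kinase MAP3K4, and the 3 genes respond to different sets of stimuli. The transcription factor p53, which the ligase MDM2 keeps at low levels, is stabilised after DNA damage and switches on genes that stop the cell cycle, repair DNA, feed back on p53 itself or start cell death. Several of its targets, Gadd45a, Plk2 and Btg2 among them, are also switched on by growth factor, cAMP or stress kinase signals without p53. Loss of p53 function by routes other than mutation of its gene is common in melanoma.

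Of the 10 genes, 8 were higher in treated cells, 0 were lower and 2 did not pass the test, beside 25.1% of all 15150 tested genes that were called higher and 27.9% called lower (edgeR quasi-likelihood test, Benjamini-Hochberg adjusted p under 0.05 over all tested genes). In 8 of the 10 every treated library lay above every control library, where 28.4% of tested genes did so and 30.3% had every treated library below every control. None of the 10 was lower at an unadjusted p under 0.05 or by DESeq2. Over all tested genes 3809 were higher and 4223 lower, whereas scaling by library totals gave 5069 higher and 3045 lower. The size of the change split the group. Plk2 and Gadd45a were almost 4-fold higher, Btg2 was over 2-fold higher and Gadd45g and Gadd45b were under 2-fold higher, whereas Trp53inp1, Mdm2 and Phlda3 were higher by 14.8%, 12.3% and 7.18%. Cdkn1a and Ccng1, the most highly expressed of the 10, had log2 fold changes of 0.01 and -0.03. The median log2 fold change was 0.47 over the 10 genes and 0.01 over all tested genes.

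**Figure D1:**
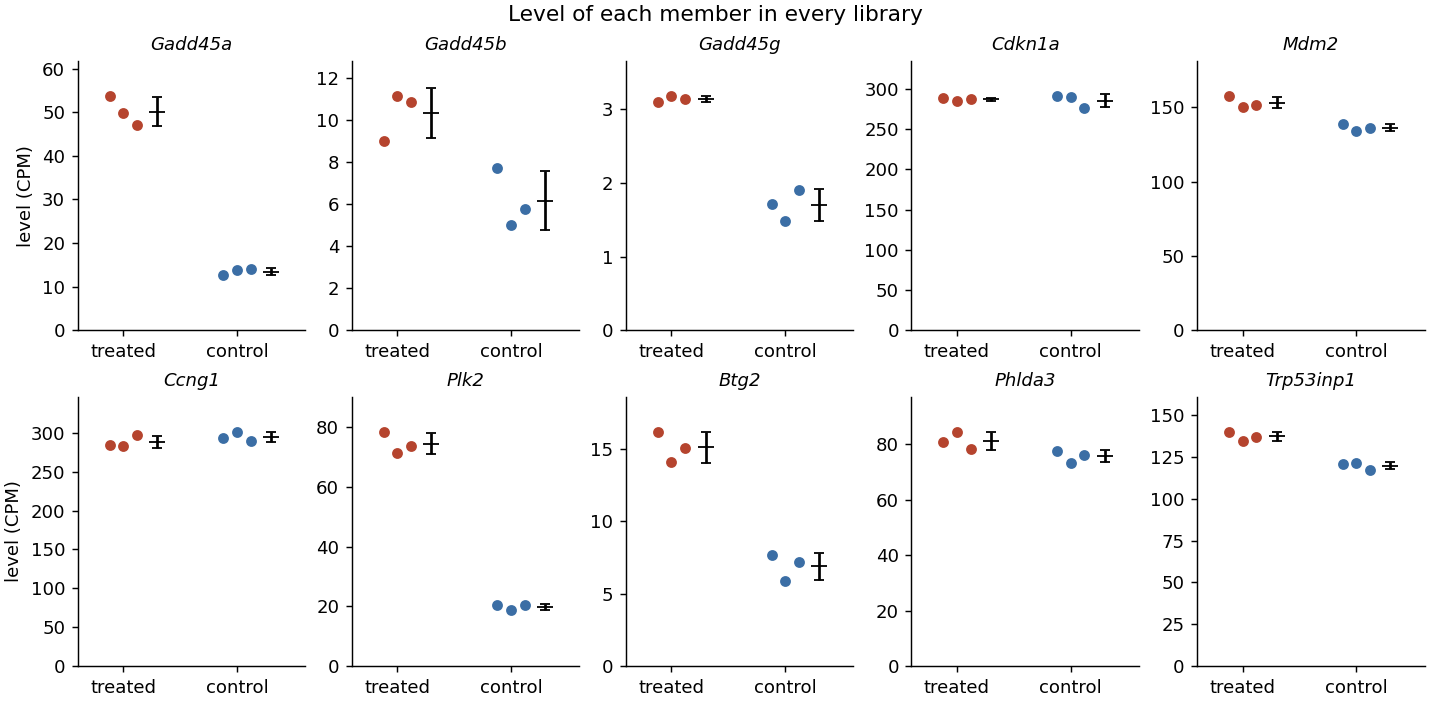
Levels of the 10 genes in CPM (counts scaled to library totals with TMM factors, linear axes), with 1 point for each of 3 treated (left) and 3 control (right) libraries and the mean ± SD in black. Treated and control points are far apart for Gadd45a, Plk2 and Btg2, close but separate for Mdm2, Phlda3 and Trp53inp1, and overlap for Cdkn1a and Ccng1.

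Library totals ranged from 31183728 to 33717357 counts in treated and from 31991473 to 40129044 counts in control libraries. These ranges overlapped, whereas other library measures separated the groups. Mitochondrial genes took 3.04 to 3.14% of counts in treated and 2.87 to 2.93% in control libraries. The top 10 genes took 6.46 to 6.56% in treated and 6.03 to 6.18% in control libraries. A count was found for 21311 to 21850 genes in treated and 20643 to 21167 in control libraries. TMM factors were 1.024 to 1.029 in treated and 0.972 to 0.974 in control libraries. No 2 libraries of a group agreed within sampling noise (lowest chi-square per gene 3.28, where noise alone gives about 1). The summed level of 10 melanocyte markers was 14552 to 15410 CPM in treated and 17594 to 18205 CPM in control libraries, 9 of them lower and 1 higher in treated cells. Markers of other cell types were near 0, and the highest sums in treated libraries were 8.43 CPM for fibroblast (4 of 6 markers with a count), 3.98 CPM for endothelial (5 of 5), 1.89 CPM for immune (4 of 6) and 0.519 CPM for keratinocyte markers (3 of 6). In control libraries the highest sums were 6.53, 2.12, 1.10 and 1.07 CPM for the same types. Of the 6 such markers that could be tested, Vwf (endothelial), Col1a1 (fibroblast) and Lyz2 (immune) were higher in treated cells, by 1.12, 0.73 and 0.64 on the log2 scale, and Cdh1 (keratinocyte) was lower, at -0.92 (edgeR adjusted p = 4.34e-05, 6.36e-05, 0.0441 and 0.0246). The part of these markers and library measures in the results was not tested. In bulk RNA a change in the share of cells that express a gene and a change of its RNA per cell cannot be told apart.

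Plk2 encodes polo-like kinase 2, a serine/threonine kinase that acts in centriole duplication and in the stress response of dividing cells. Its level was 78.5, 71.5 and 73.6 CPM in treated libraries, against 20.4, 18.7 and 20.4 CPM in control libraries. The groups were far apart, and the spread within either was small beside the gap. The mean was 74.5 ± 3.57 CPM in treated and 19.8 ± 0.985 CPM in control libraries (SD, n = 3 each), and the log2 fold change was 1.91 ± 0.05 (edgeR SE and adjusted p = 8.15e-19). It ranked 84 among the 15150 tested genes, counted from the largest rise.

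Gadd45a, the family member classed as a direct p53 target, measured 53.7, 49.8 and 47.0 CPM in treated libraries, against 12.6, 13.8 and 14.0 CPM in control libraries. All treated values were more than 3 times any control value. Its log2 fold change was 1.90 ± 0.06 (edgeR adjusted p = 7.35e-17), rank 88 of 15150. In the annotation 337 exonic bases of Gadd45a overlap E230016M11Rik, a noncoding gene on the opposite strand that had 267 counts in the 6 libraries together against 6438 for Gadd45a. The sources used here do not say whether counting used the strand, so reads of the 2 genes cannot be told apart there.

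Btg2 encodes an antiproliferative protein that recruits the enzyme complex removing poly(A) tails from mRNA. It had 16.2, 14.1 and 15.1 CPM in treated libraries, against 7.68, 5.86 and 7.16 CPM in control libraries. The lowest treated library was well above the highest control library. The log2 fold change was 1.12 ± 0.10 (edgeR adjusted p = 1.52e-09).

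Plk2, Gadd45a and Btg2 were the 3 of the 10 genes that were called at least 2-fold higher, a class that held 4.17% of tested genes. Over the 6 libraries the pattern of Gadd45a, measured as log2 CPM centred per gene, differed from that of Plk2 by a root mean square of 0.08. Among 9946 other protein-coding genes averaging 5 CPM or more, the patterns nearest to Gadd45a were those of Cnn2, Lgals3 and Cp, at 0.09, 0.09 and 0.10. Those nearest to Plk2 were Cnn2, Lgals3 and Rras, at 0.07, 0.08 and 0.08. Cnn2, Lgals3, Cp and Rras had log2 fold changes of 1.80, 1.98, 1.72 and 1.81, against 1.90 for Gadd45a and 1.91 for Plk2. With 2 groups and little spread within them, likeness of this kind mainly reflects similar fold changes.

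Promoter sequences of the genes were searched for motifs. RefSeq (GRCm38.p6) gave windows from 250 bases before to 50 bases after the start for 9 of the 10 genes, all but Trp53inp1, with 2 windows for Cdkn1a. On both strands, the cAMP response element TGACGTCA occurred in the windows of Plk2 and Btg2, and in 1.79% of all 32851 windows. The share over all windows was not matched for base content, and the motif was chosen after the data were seen. G and C made up 66.3% of the Plk2 and 72.0% of the Btg2 window, against a median of 52.7% over all windows. The p53 half-site consensus occurred in the windows of Gadd45a, Mdm2 and Ccng1, and in 8.36% of all windows. Of the 2 Cdkn1a windows only the upstream one held it. No window of the 10 held the AP-1 site TGANTCA or a CArG box, the site of serum response factor, which occurred in 7.81% and 1.63% of all windows. The antioxidant response element TGACNNNGC, which an AP-1 site can overlap, occurred in the Gadd45g window and the downstream Cdkn1a window. It was in 12.4% of all windows. Basal promoter motifs were also searched: TATAAA was in 2, CCAAT in 6 and GGGCGG in 7 of the 10 windows, and in 13.6%, 37.4% and 35.7% of all windows. The 250 bases before the start are shown for the 2 genes with the cAMP element and for 2 with the half-site, one that rose and one that did not pass, with these matches in capitals and the strand of the gene as printed.
Plk2 (chr13:110394794-110395043, plus strand): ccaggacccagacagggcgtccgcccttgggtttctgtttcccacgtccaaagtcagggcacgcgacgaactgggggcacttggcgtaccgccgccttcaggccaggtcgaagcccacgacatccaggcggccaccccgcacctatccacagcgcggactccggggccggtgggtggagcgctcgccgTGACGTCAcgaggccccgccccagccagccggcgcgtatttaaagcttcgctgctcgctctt
Btg2 (chr1:134079156-134079405, minus strand): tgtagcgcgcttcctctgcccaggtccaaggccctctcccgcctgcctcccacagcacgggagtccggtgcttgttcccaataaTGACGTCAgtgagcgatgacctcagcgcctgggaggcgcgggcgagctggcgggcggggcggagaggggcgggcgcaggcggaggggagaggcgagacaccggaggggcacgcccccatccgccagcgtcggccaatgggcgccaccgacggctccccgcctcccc
Gadd45a (chr6:67037408-67037657, minus strand): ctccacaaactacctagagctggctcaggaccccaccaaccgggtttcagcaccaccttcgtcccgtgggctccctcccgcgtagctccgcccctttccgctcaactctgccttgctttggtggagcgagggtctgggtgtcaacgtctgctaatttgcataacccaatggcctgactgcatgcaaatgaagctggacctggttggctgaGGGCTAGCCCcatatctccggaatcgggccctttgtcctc
Cdkn1a, upstream start (chr17:29090729-29090978, plus strand): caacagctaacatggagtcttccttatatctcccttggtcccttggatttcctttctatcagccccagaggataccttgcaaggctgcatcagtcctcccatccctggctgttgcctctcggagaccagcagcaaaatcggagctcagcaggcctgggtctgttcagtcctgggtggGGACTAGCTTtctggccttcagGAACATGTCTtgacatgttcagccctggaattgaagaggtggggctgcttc

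The cAMP element lay at position -62 in Plk2 and -166 in Btg2, counted from the start to the first base of the match. In Gadd45a the half-site match GGGCTAGCCC lay at -40. The upstream Cdkn1a window held GGACTAGCTT at -73 and GAACATGTCT at -51, and the downstream one held no half-site. Matches in the windows not shown were GAACTTGCCT at -186 in Mdm2 and GGGCAAGCCT at -185 in Ccng1. A match describes these letters and not binding. Sequence outside the windows was not searched, so a window without a match does not show that the gene lacks such a site. Among 369 tested genes with the cAMP element in a window, 28.7% were higher and 29.3% lower in treated cells, with a median log2 fold change of 0.05. Of 10290 tested genes with any window, 27.9% were higher and 31.4% lower, with a median of 0.01. For 850 tested genes with the half-site, 28.6% were higher and 28.7% lower, with a median of 0.02.

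The other GADD45 genes were expressed at lower levels. Gadd45b, which is best known as an early gene of NF-kB and TGF-beta signalling, had 8.99, 11.1 and 10.9 CPM in treated libraries, against 7.70, 4.99 and 5.79 CPM in control libraries. The groups did not overlap, but control library 1 lay closer to the lowest treated library than to the other controls. The log2 fold change was 0.73 ± 0.13 (edgeR adjusted p = 4.07e-05). Without control replicate 1 it was 0.94, and without control replicate 2 it was 0.61.

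Gadd45g, which acts in T cell and gonadal development as well as in stress, rested on few reads, with 105, 110 and 100 counts in treated and 67, 46 and 64 counts in control libraries. In CPM these were 3.09, 3.17 and 3.13 in treated, against 1.71, 1.48 and 1.90 in control libraries. The groups did not overlap, and the log2 fold change of 0.88 ± 0.18 had the widest interval of the 10 genes, 0.51 to 1.25 (95%, edgeR adjusted p = 1.98e-04).

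Levels of different genes were compared per length, as CPM per kilobase of annotated exon. The length joined all annotated exons of a gene and need not be that of the transcripts expressed. Shares and orders between genes depend on this length. Gadd45a measured 28.4 ± 1.90 in treated and 7.63 ± 0.433 in control libraries, Gadd45b measured 6.50 ± 0.736 in treated and 3.88 ± 0.878 in control libraries, and Gadd45g measured 2.67 ± 0.0331 in treated and 1.45 ± 0.180 in control libraries (CPM per kilobase, SD, n = 3 each). The 3 genes summed to 37.6 ± 1.32 in treated and 13.0 ± 0.659 CPM per kilobase in control libraries. Gadd45a made up 78.6, 74.4 and 73.7% of this sum in treated libraries, against 53.1, 64.0 and 60.1% in control libraries. The share was higher in every treated library than in any control library, while the shares of Gadd45b and Gadd45g were lower. Gadd45b took 17.3 ± 2.37% in treated and 29.8 ± 5.51% in control libraries, and Gadd45g took 7.11 ± 0.289% in treated and 11.2 ± 0.996% in control libraries. For each share the exact two-sided permutation test gave p = 0.10, the smallest value that 3 against 3 libraries allow.

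**Figure D2:**
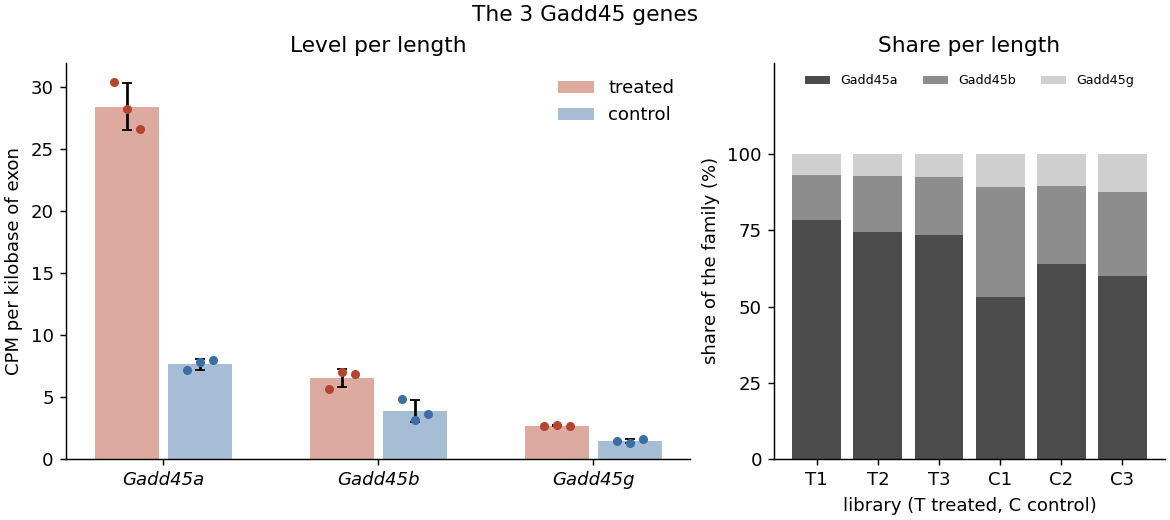
Left, level per length (CPM per kilobase of exon, bars and error bars mean ± SD, points single libraries) of the 3 Gadd45 genes in treated and control libraries. Right, the share of each gene in their sum in every library, which for Gadd45a is 73.7 to 78.6% in treated and 53.1 to 64.0% in control libraries.

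Cdkn1a encodes p21, the inhibitor of cyclin-dependent kinases through which p53 halts the cell cycle, and is often used as the readout of p53 activity. Its level was 289, 285 and 287 CPM in treated libraries, against 291, 289 and 276 CPM in control libraries. The groups overlapped fully, and the log2 fold change was 0.01, with a 95% interval from -0.04 to 0.06 (edgeR adjusted p = 0.823). At 8986 to 11360 reads a library, the upper bound lies below the fold change estimate of each of the 8 genes that passed. The 95% interval of Phlda3, from 0.025 to 0.174, nevertheless overlapped that of Cdkn1a. The bound was computed with TMM scaling. The Cdkn1a estimate also lay below it with median-of-ratios factors, at 0.013, and with DESeq2, at 0.0046. The estimate lay above the bound at 0.09 by library totals and at 0.14 once offsets followed gene level. The annotated opposite-strand gene AC167363.2 shares 273 exonic bases with Cdkn1a and had 187 counts in the 6 libraries together against 58478.

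Ccng1 encodes cyclin G1, which recruits a phosphatase to MDM2 and is among the targets that p53 induces in many tissues. It measured 285, 283 and 297 CPM in treated libraries, against 293, 301 and 289 CPM in control libraries. The groups overlapped, with a log2 fold change of -0.03 and a 95% interval from -0.08 to 0.02 (edgeR adjusted p = 0.333). With offsets that depend on the level of a gene both passed as rises, of 0.14 for Cdkn1a and 0.10 for Ccng1 on the log2 scale (edgeR adjusted p = 6.70e-05 and 0.00204), and with library totals Cdkn1a passed as a rise of 0.09 (edgeR adjusted p = 0.00547). Over all settings the adjusted p ranged from 6.70e-05 to 0.987 for Cdkn1a and from 0.00204 to 0.706 for Ccng1.

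Mdm2 encodes the ubiquitin ligase that marks p53 for degradation and is itself a p53 target. It had 157, 150.4 and 151 CPM in treated libraries, against 139, 134 and 136 CPM in control libraries. Treated libraries were all higher, by a small margin of 0.17 ± 0.03 on the log2 scale (edgeR adjusted p = 2.09e-05).

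Trp53inp1 encodes a nuclear protein that promotes p53-dependent cell death and takes part in autophagy. It had 140.2, 135 and 137 CPM in treated libraries, against 121, 121 and 117 CPM in control libraries, and no treated library reached down to a control. The log2 fold change was 0.20 ± 0.03 (edgeR adjusted p = 1.90e-06).

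Phlda3 encodes a pleckstrin homology domain protein that restrains the kinase AKT. It had 80.7, 84.5 and 78.3 CPM in treated libraries, against 77.7, 73.2 and 76.2 CPM in control libraries. The groups were barely apart, and the log2 fold change was 0.10 ± 0.04 (edgeR adjusted p = 0.0229). The call was lost without treated replicate 1, treated replicate 2 or control replicate 2 (edgeR adjusted p = 0.0505, 0.161 and 0.122, in a range from 2.49e-04 to 0.161 over all settings).

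**Figure D3:**
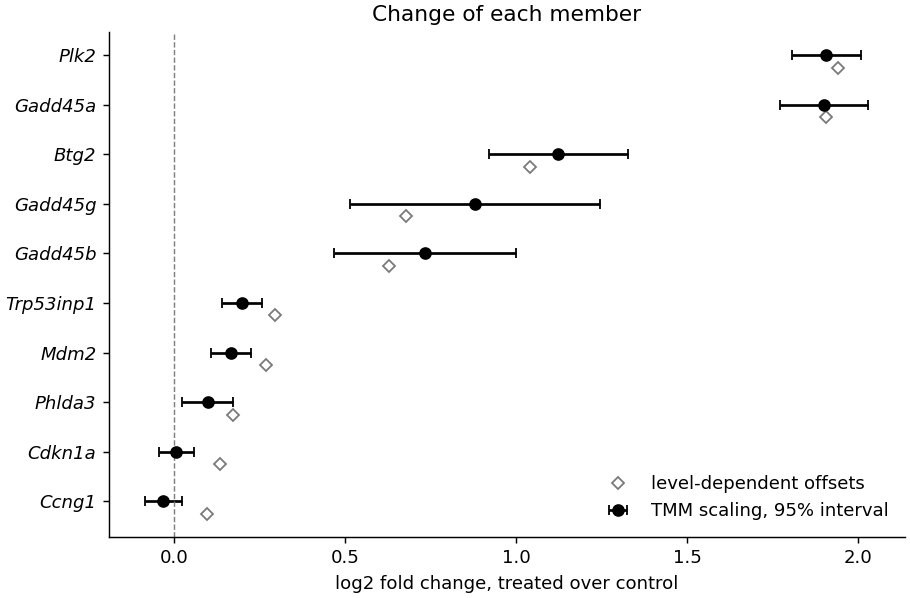
Log2 fold changes of the 10 genes, treated over control, ordered by size. Filled points with bars are the fit with TMM scaling and its 95% interval, and open diamonds are the same genes with level-dependent offsets. Plk2 and Gadd45a lie near 1.9 on the log2 axis under both, and the bars of Cdkn1a and Ccng1 cross 0.

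Changes in this comparison depended on the level of a gene, which bears on the small changes above. All tested genes with a mean under 5 CPM had a median log2 fold change of 0.25, those from 5 to 20 CPM one of 0.06, those from 20 to 100 CPM one of -0.05, and those from 100 CPM up one of -0.12. Level-dependent offsets remove this trend by construction. With them the log2 fold changes were 1.94 for Plk2, 1.91 for Gadd45a, 1.04 for Btg2, 0.68 for Gadd45g and 0.63 for Gadd45b, and all 10 genes passed as higher. Which scaling is right for these cells was not tested.

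**Figure D4:**
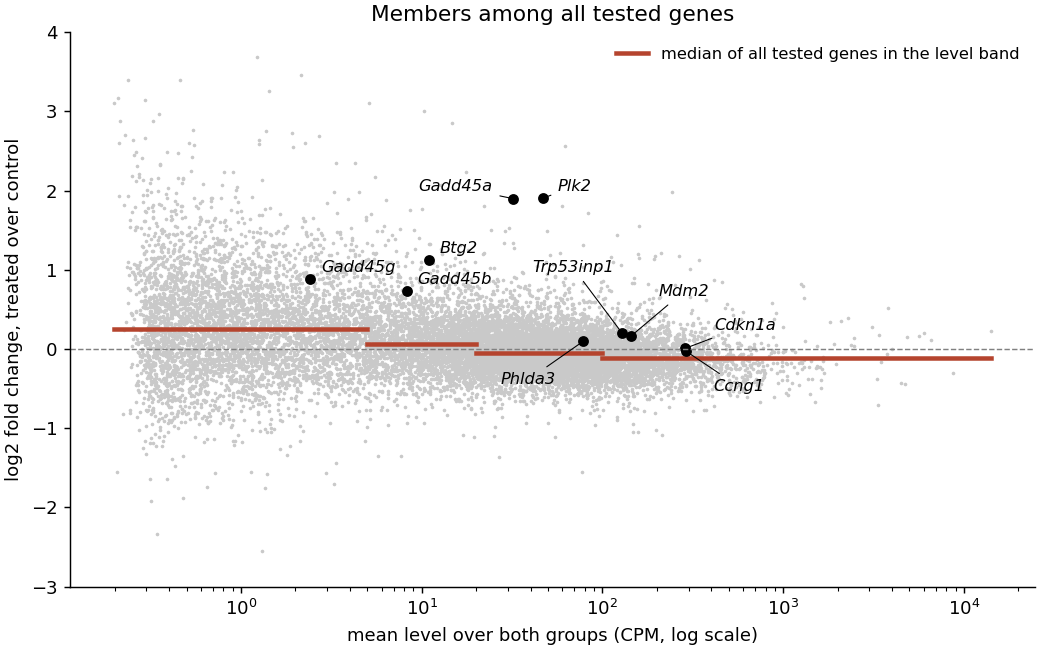
Log2 fold change, treated over control, against the mean level over both groups (CPM, log axis) for all tested genes (grey), with the 10 genes in black and the median of each level band in red; 3 genes above the plotted range are not drawn. Gadd45a and Plk2 lie far above the median of their level band, while Cdkn1a and Ccng1 lie just above a band median of -0.12.

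Ordered per length, the 10 genes ran from Ccng1 and Cdkn1a at 82.1 ± 2.23 and 80.7 ± 0.508 CPM per kilobase in treated libraries, against 83.8 ± 1.80 and 80.3 ± 2.22 in control libraries, down to Gadd45g. Phlda3 followed at 52.1 ± 2.0 in treated and 48.6 ± 1.47 in control libraries, and Mdm2 at 30.1 ± 0.747 in treated and 26.8 ± 0.470 in control libraries. In control libraries Trp53inp1 came next at 18.5 ± 0.328, and Gadd45a at 7.63 ± 0.433 stood below it. In treated libraries Gadd45a stood above Trp53inp1, which measured 21.2 ± 0.405, and its values overlapped those of Mdm2. Plk2 reached 16.6 ± 0.796 in treated and 4.42 ± 0.219 in control libraries, and Btg2 reached 5.51 ± 0.384 in treated and 2.51 ± 0.342 in control libraries. In treated libraries the neighbours Ccng1 and Cdkn1a, Mdm2 and Gadd45a, and Gadd45b and Btg2 overlapped, and in control libraries Plk2 and Gadd45b did. The other neighbours were apart.

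Trp53, the gene of p53 itself, measured 126, 130.1 and 129 CPM in treated libraries, against 144, 139.8 and 138 CPM in control libraries. All treated libraries were lower, with a mean difference of -0.13 ± 0.03 on the log2 scale (edgeR adjusted p = 3.46e-04). That call was lost with library totals, at -0.05 on the log2 scale (edgeR adjusted p = 0.120), and when offsets depended on level, at -0.03 (edgeR adjusted p = 0.366, the highest of all settings, the lowest being 1.69e-05). Of 15 tested genes on a list of p53 and its regulators, 7 fell, 3 rose and 5 did not pass, with a median log2 fold change of -0.03, beside 27.9% of all tested genes that fell and 25.1% that rose. The inhibitor gene Mdm4, a relative of Mdm2, rose by 0.23 ± 0.02, the p53 kinase gene Hipk2 by 0.17 ± 0.03 and the DNA damage kinase gene Prkdc by 0.13 ± 0.04 on the log2 scale. The acetyltransferase gene Kat5 fell by 0.48, the checkpoint kinase genes Chek1 and Atm by 0.37 and 0.30, the ubiquitin ligase genes Rchy1 and Cop1 by 0.26 and 0.16, and the deubiquitinase gene Usp7 by 0.14. The call of Cop1 was lost under 6 settings, that of Prkdc without control replicate 1 and that of Usp7 with level-dependent offsets. With level-dependent offsets 5 genes of the list rose and 4 fell, and with library totals 6 rose and 5 fell. The kinase genes Atr and Chek2, the damage adaptor gene Trp53bp1 and the coactivator genes Ep300 and Crebbp did not pass, with log2 fold changes from -0.03 to 0.08, and Ep300 passed as a rise with both of those settings. Trp53bp1 passed as a rise under 5 settings and Crebbp with library totals. Trp73, a gene of the p53 family, had at most 2 counts a library and was not tested, and Cdkn2a and Trp63 were not analysed here.

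Of 18 tested other p53 targets for arrest, feedback and stress, 7 rose, 5 fell and 6 did not pass, with a median log2 fold change of 0.08. Over all tested genes 25.1% rose and 27.9% fell, so the share of these targets that fell was that of the background. The share that rose was above the background, a difference that was not tested. The receptor kinase gene Epha2 had 5.54, 5.28 and 4.73 CPM in treated libraries, against 1.89, 1.32 and 2.35 CPM in control libraries, or 1.48 ± 0.17 on the log2 scale (edgeR adjusted p = 1.86e-07). The 14-3-3 sigma gene Sfn rose by 0.89 ± 0.18, the noncoding RNA gene Trp53cor1, which lies beside Cdkn1a, by 0.69 ± 0.14, and the epoxide hydrolase gene Ephx1 by 0.41 ± 0.03. Sesn2, a stress gene that restrains mTORC1, had 48.8, 43.7 and 47.8 CPM in treated libraries, against 86.8, 86.0 and 83.1 CPM in control libraries, and fell by 0.87 on the log2 scale (edgeR adjusted p = 2.91e-14). The small GTPase gene Rap2b fell by 0.63 and Gtse1, whose product restrains p53 in G2 phase, by 0.38.

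Among 11 tested p53 targets of cell death, 3 rose, 1 fell and 7 did not pass, with a median log2 fold change of 0.04. Over all tested genes 25.1% rose and 27.9% fell, so the share of these targets that rose was near that of the background. The share that fell was below the background, a difference that was not tested. Bbc3, which encodes the BH3-only protein PUMA, had 20.9, 19.8 and 17.7 CPM in treated libraries, against 10.7, 11.8 and 10.5 CPM in control libraries, or 0.83 ± 0.08 on the log2 scale (edgeR adjusted p = 9.12e-09). The death receptor gene Tnfrsf10b and the apoptosome gene Apaf1 rose by 0.29 ± 0.07 and 0.25 ± 0.03. Ei24 fell by 0.10, a call that was lost under 5 settings. Among 12 tested targets of DNA repair and metabolism, 2 rose, 4 fell and 6 did not pass, with a median log2 fold change of -0.01. Of all tested genes 25.1% rose and 27.9% fell, and the difference from these shares was not tested. With library totals 4 of the repair and metabolism targets rose and 3 fell. The ribonucleotide reductase gene Rrm2b rose by 0.35 ± 0.05, and the ferredoxin reductase gene Fdxr, the glutathione peroxidase gene Gpx1 and Pcna fell by 0.49, 0.39 and 0.28.

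**Figure D5:**
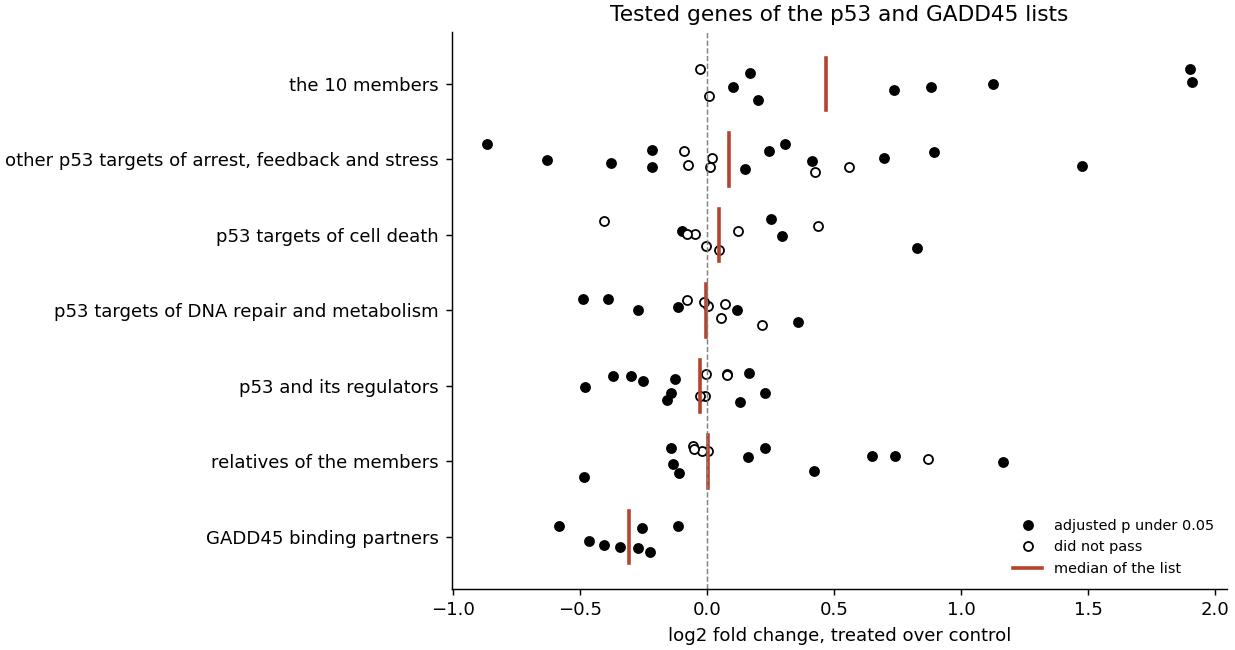
Log2 fold change, treated over control, of every tested gene on 7 lists, with filled points for adjusted p under 0.05, open points for genes that did not pass and a red line at the list median. The 10 genes spread from -0.03 to 1.91, the 3 lists of other p53 targets scatter on both sides of 0, and all 8 partners of GADD45 proteins lie below 0.

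All 8 genes on a list of GADD45 binding partners fell, with a median log2 fold change of -0.31, where 27.9% of all tested genes, and 58.5% of those averaging 100 CPM or more, fell. Npm1, the nucleolar chaperone gene, had 854, 819 and 865 CPM in treated libraries, against 1276, 1283 and 1243 CPM in control libraries, and fell by 0.58 on the log2 scale (edgeR adjusted p = 1.46e-16). Tdg, whose DNA glycosylase acts with GADD45A in removing methylated cytosine, fell by 0.47. Ccnb1, the cyclin gene of the mitotic kinase complex that GADD45 proteins inhibit, fell by 0.41, the JNK kinase gene Map2k7 by 0.35 and the clamp gene Pcna by 0.28. The smallest change was that of Map3k4, named after its value was seen, which fell by 0.12 and did not pass with library totals or with level-dependent offsets, where 7 of the 8 fell.

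Of 15 tested relatives of the 10 genes, 6 rose, 4 fell and 5 did not pass, with a median log2 fold change of 0.00, beside 25.1% of all tested genes that rose and 27.9% that fell. In the polo-like kinase family Plk3, a stress-responsive relative of Plk2, had 15.4, 14.0 and 15.6 CPM in treated libraries, against 9.78, 10.1 and 8.88 CPM in control libraries, or 0.65 ± 0.08 on the log2 scale (edgeR adjusted p = 7.16e-07). The mitotic kinase gene Plk1 had 86.7, 90.8 and 89.0 CPM in treated libraries, against 124, 123 and 127 CPM in control libraries, and fell by 0.49 on the log2 scale. The centriole kinase gene Plk4 fell by 0.14, and Plk5 had 2, 0 and 4 counts in treated libraries and 0 in every control library and was not tested.

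In the BTG family Btg1 rose by 0.42 ± 0.05 and Btg3 by 0.16 ± 0.04, while Tob1 and Tob2 did not pass, at log2 fold changes of -0.02 and -0.05. Trp53inp2, the autophagy relative of Trp53inp1, had 142, 135 and 131 CPM in treated libraries, against 82.4, 80.9 and 80.9 CPM in control libraries, or 0.74 ± 0.03 on the log2 scale (edgeR adjusted p = 5.69e-15). Among kinase inhibitor genes related to Cdkn1a, Cdkn1b fell by 0.11, and Cdkn1c rose by 1.16 ± 0.31 at a level of 1.12 CPM in treated and 0.498 CPM in control libraries. Phlda1 fell by 0.14 and Phlda2 did not pass, at 0.87 ± 0.38 on the log2 scale (edgeR adjusted p = 0.0627, from 0.00534 to 0.294 over all settings), and passed under 5 settings. The cyclin genes Ccng2 and Ccni did not pass, at log2 fold changes of 0.00 and -0.06. Ccni passed without control replicate 2 and Tob1 without treated replicate 1, both as falls. The falls of Plk4, Cdkn1b and Phlda1 did not pass with library totals or with level-dependent offsets, where 1 relative, Plk1, fell.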

How the data were processed

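The deposited table holds read counts per gene as the authors made them, unnormalised, in 1 column for each of 6 libraries (3 treated, 3 control). Each column carries a library name that 1 label gives, and 0 columns were left unmatched. Per the submitters' processing notes, fastp 0.22.0, HISAT2 2.2.0 and featureCounts 2.0.6 were used, and the builds hg38 and mm39 are listed with no role. The sources used here name neither annotation release nor strand setting. Symbols, biotypes and exon lengths came from GENCODE M21 (26531 of 27067 identifiers matched), and promoter windows from RefSeq (GRCm38.p6), whose coordinates belong to that build and not to the one listed for the counts.

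The filter filterByExpr, set to 10 counts and 15 in total, passed 15150 genes. These were scaled by TMM factors and tested on group alone in edgeR 4.0.16 (R 4.3.3, quasi-likelihood F test, two-sided). Fold changes are treated over control, their SE follows from F, and 95% intervals use the test's degrees of freedom. CPM use TMM-scaled totals, and likeness of patterns used log2(CPM + 0.5). No member had a near-identical transcript (300 aligned bases at 95% identity) of another gene apart from the overlap given for Gadd45a. Alternatives included DESeq2 1.42.0 and cyclic loess offsets (limma 3.58.1).

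The genes and lists were chosen with earlier results of these data known. Named genes are the 10, their relatives and the p53 regulators whatever their result, for other lists the changed genes with the smallest p or largest change (up to 4 of each), and the 3 nearest patterns of Gadd45a and Plk2. Level bands and motifs were chosen after the data were seen.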

Additional observations from a re-analysis of the deposited data

How the results depend on the processing

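Over 14 alternatives and the reported fit, 7 to 10 of the 10 genes were called higher (9 with library totals, 10 with level-dependent offsets, 7 to 8 with a library left out) and 0 lower. Log2 fold changes ranged from 1.85 to 1.98 for Gadd45a, 1.87 to 1.99 for Plk2, 1.02 to 1.22 for Btg2, 0.61 to 0.94 for Gadd45b, 0.68 to 0.97 for Gadd45g, 0.14 to 0.27 for Mdm2 and 0.18 to 0.30 for Trp53inp1, past the threshold in each. With a library left out, Phlda3 ranged from 0.068 to 0.12 (lost in 3 of 6 such fits), Cdkn1a from -0.013 to 0.025, Atr from -0.047 to 0.022, Ccng2 from -0.031 to 0.050, Ep300 from -0.022 to 0.018 and Tob1 from -0.095 to 0.018, and the cell death targets that fell from 0 to 1. Library totals gave 5069 genes higher and 3045 lower, against 3809 and 4223 with TMM and 3875 and 3812 with level-dependent offsets. Library totals gave 6 p53 regulators higher, 0 cell death targets lower, 4 repair and metabolism targets higher and 1 relative lower, and log2 fold changes of 0.085 for Cdkn1a, 0.047 for Ccng1, 0.068 for Atr, 0.023 for Ccni, 0.051 for Chek2, 0.074 for Ep300, 0.057 for Tob1 and 0.025 for Tob2. Level-dependent offsets gave 5 p53 regulators higher and 4 lower, 0 cell death targets lower and 1 relative lower, and log2 fold changes of 0.14 for Cdkn1a, 0.098 for Ccng1, 0.049 for Atr, 0.057 for Ccni, 0.011 for Chek2, 0.098 for Ep300, 0.048 for Tob1 and 0.0094 for Tob2. With no filter Cdkn1a was -0.0044 and Ccng2 -0.0097. The filter at 1 CPM gave 0.0071 for Atr and 0.013 for Ep300, protein-coding genes alone gave 0.0043 and median-of-ratios factors 0.0014 for Ep300, and DESeq2 gave -0.00067 for Ccng2. The cause of these shifts was not tested. Same-numbered treated and control libraries did not deviate together (correlations of -0.01, -0.03 and 0.02), and the fit with the replicate number as a block called 3804 genes higher and 4257 lower, and 8 of the 10 higher. With 46 to 110 counts a library, depth limits Gadd45g most.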
